A study of Mus musculus with 72 samples.

Results

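The transcripts described here are those of the enzymes that put methyl groups on histones and on protein arginines, and of the enzymes that take methyl groups off histones. They were chosen by name: gene symbols that begin with Kmt, Setd, Ezh, Ehmt, Nsd, Suv39h, Prmt or Kdm followed by a digit, together with Carm1 and Dot1l, and without the Y-linked Kdm5d. The rule found 53 of the 24091 genes in the 2 deposited gene tables, 52 in the liver table and 52 in the table of the suprachiasmatic nucleus (SCN), the seat of the central circadian pacemaker in the hypothalamus. By role they were 8 methyltransferases of lysine 4 on histone H3 (H3K4), 4 of H3K9, 2 of H3K27, 4 of H3K36, 1 of H3K79 and 3 of H4K20, with 4 other SET domain proteins and 9 arginine methyltransferases. The removing enzymes were 2 flavin-dependent and 15 jumonji demethylases, and the last gene was Kdm6bos, a transcript on the strand opposite to Kdm6b. Kdm6bos was listed in the liver table alone and Prmt8 in the SCN table alone.

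RNA-seq libraries came from C57BL/6J mice, for which the labels name no mutant allele or transgene, fed freely for 11 days on a diet without enough methionine and choline (MCD) or on its control of equal energy content. The mice, 8 to 12 weeks old when bought, lived alone in light-dark cycles for 10 days and in constant darkness on the last, when they were killed at circadian time (CT) 0, 4, 8, 12, 16 or 20. There were 24 combinations of diet, time and tissue with 3 libraries apiece, per the sample labels 2 male and 1 female, so that a diet had 18 libraries per tissue. Liver was a piece of the left lobe, and the SCN was cut by laser from stained brain sections. The growth protocol speaks of males alone, and nothing in the labels says which liver and SCN came from 1 mouse. Libraries held 52.6 to 86.7 M gene counts in liver and 23.4 to 79.8 M in SCN, of which these genes took 0.138% to 0.219% and 0.214% to 0.306%.

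All of the methyl-adding enzymes use S-adenosylmethionine, which cells make from methionine, as the methyl donor. Methylation of H3K4 marks active promoters and enhancers, that of H3K36 and H3K79 transcribed gene bodies, and that of H3K9, H3K27 and H4K20 silent chromatin, while arginine methyltransferases also act on many RNA-binding and ribosomal proteins. Jumonji demethylases need iron, oxygen and 2-oxoglutarate, and the flavin enzymes Kdm1a and Kdm1b need FAD. Several of these enzymes are known to work with the CLOCK and BMAL1 factors, which bind the E-box sequence CACGTG in promoters of the core clock genes.

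Because time of day is part of the design, the region before the transcription start was read from the RefSeq promoter table (build GRCm38.p6), which held windows of 300 bases for 40 of these genes. Of the 40 genes, 5 held an E-box (CACGTG, its own reverse complement) in a window, against 8.09% of 27025 genes of the table. The 250 bases before the start are printed for these 5 because they are the windows with the clock factors' sequence, and for Kdm4a because its liver rhythm differed between the diets and its window holds none of the motifs searched. Capitals mark the E-boxes, and each sequence reads 5′ to 3′ on the gene's strand.
Prmt3, chr7:49778108-49778357, plus strand: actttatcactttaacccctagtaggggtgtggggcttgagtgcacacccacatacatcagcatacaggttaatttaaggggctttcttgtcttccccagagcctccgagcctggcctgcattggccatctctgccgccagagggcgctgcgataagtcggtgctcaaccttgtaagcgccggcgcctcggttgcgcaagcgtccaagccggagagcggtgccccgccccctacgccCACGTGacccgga
Prmt1, chr7:44986421-44986670, minus strand: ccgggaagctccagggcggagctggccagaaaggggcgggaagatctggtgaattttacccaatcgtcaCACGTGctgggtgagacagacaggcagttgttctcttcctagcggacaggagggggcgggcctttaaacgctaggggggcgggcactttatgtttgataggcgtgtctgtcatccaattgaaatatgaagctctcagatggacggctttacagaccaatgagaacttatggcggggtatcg
Kdm6a, chrX:18162325-18162574, plus strand: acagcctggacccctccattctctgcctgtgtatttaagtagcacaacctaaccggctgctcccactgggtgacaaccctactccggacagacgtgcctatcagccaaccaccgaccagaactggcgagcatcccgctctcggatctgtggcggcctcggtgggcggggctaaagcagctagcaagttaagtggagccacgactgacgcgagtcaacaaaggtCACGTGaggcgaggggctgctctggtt
Ehmt2, chr17:34898224-34898473, plus strand: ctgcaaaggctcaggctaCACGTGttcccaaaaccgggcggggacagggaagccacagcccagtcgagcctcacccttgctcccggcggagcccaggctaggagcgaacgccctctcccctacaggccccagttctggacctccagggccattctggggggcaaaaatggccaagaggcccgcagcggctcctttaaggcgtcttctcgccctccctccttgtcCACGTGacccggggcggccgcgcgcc
Kdm4c, chr4:74251629-74251878, plus strand: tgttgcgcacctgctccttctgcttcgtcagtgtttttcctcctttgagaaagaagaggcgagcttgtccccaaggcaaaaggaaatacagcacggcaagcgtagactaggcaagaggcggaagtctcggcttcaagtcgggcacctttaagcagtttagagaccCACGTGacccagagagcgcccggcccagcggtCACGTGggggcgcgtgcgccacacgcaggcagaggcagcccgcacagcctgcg
Kdm4a, chr4:118180044-118180293, minus strand: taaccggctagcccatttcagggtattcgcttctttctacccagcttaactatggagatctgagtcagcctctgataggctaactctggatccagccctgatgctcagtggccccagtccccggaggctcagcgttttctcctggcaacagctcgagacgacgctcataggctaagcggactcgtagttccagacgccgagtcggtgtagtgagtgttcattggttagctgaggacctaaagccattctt
A second Ehmt2 window held 1 more E-box. The ROR element TAGGTCA (either strand) was found for Kdm1a and for another start of Kdm4c, against 2.97% of all genes in the table. The D-box and the ATF4 element were found (either strand) in no window of the 40 genes, against 1.23% and 1.03% of all genes. A match describes letters in a window and is no measured binding site.

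Levels were compared between genes per length, as CPM (a count relative to its library size, scaled within a tissue by TMM) per kilobase of annotated exon on the control diet. In liver Setd3, which methylates a histidine of actin, stood highest at 13.5 ± 0.88 CPM per kb (SD, n = 18). Ehmt2 (G9a), an H3K9 methyltransferase, followed at 13.0 ± 1.4, which lies within 1 SD of Setd3. The X-linked H3K4 demethylase Kdm5c had 11.9 ± 1.6 and the flavin demethylase Kdm1b 7.201 ± 0.81 CPM per kb. At the low end of liver were Prmt2 at 0.243 ± 0.12, Suv39h2 at 0.210 ± 0.074, Kdm6bos at 0.0721 ± 0.091 and Kdm4d at 0.00500 ± 0.011 CPM per kb. In SCN the order began with Prmt2 at 55.3 ± 4.4, Setd3 at 31.1 ± 1.7, Prmt1 at 30.3 ± 2.5 and Ehmt2 at 27.02 ± 2.0 CPM per kb. Setd3 and Prmt1 there did not differ beyond their spread. The brain arginine methyltransferase Prmt8, which is anchored to membranes, had 14.7 ± 3.4 CPM per kb in SCN, close to Prmt5, the main enzyme of symmetric arginine methylation, at 14.6 ± 1.7. Kdm4d, Ezh2, Suv39h2 and Setd4 stood lowest in SCN, each under 1 CPM per kb.

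Between the tissues 6 of the 7 arginine methyltransferases that differed were higher in SCN, while most lysine methyltransferases and demethylases that differed were lower there. Of 51 genes tested in both tissues on the control diet, 47 differed (edgeR quasi-likelihood F test, adjusted p under 0.05), against 90.4% of all 14491 genes, so that a difference between these tissues was the rule. The split was 14 higher in SCN, against 46.3% of all genes, and 33 lower, against 44.1%, with a median log2 difference of -0.52 against 0.04 over all genes. These directions are relative to the typical gene. Scaled by library totals instead, the median gene moved to 0.75, and 26 of these genes were called higher and 15 lower. Under that scaling 12 of the 47 changed sign, 9 of them with a call in the opposite direction. The shares of all genes called higher or lower under it are not given here. SCN libraries also held relatively fewer reads toward the 5′ ends of most of these genes: of the 47 with at least 5 tested exon bins, 42 had lower mean usage in SCN, relative to liver, over the 5′ bins than over the 3′ bins (medians of -0.51 and 0.04, log2). The same count over all genes is not given here, so nothing shows this skew to be particular to these genes. The arginine methyltransferases have annotated exon lengths of 2.72 kb (Prmt8) to 6.13 kb (Prmt7), while those of the other genes reach 20.3 kb (Kmt2c), and the part of this skew in the tissue differences was not tested. In bulk samples, fewer cells of a type and less RNA per cell cannot be told apart. Each scaled within its tissue, neuronal markers (Snap25, Syt1, Rbfox3) summed to 1418 ± 89 CPM in SCN on the control diet and 10.0 ± 4.6 CPM in liver, and hepatocyte markers to 8.26 ± 7.3 and 88300 ± 13060 CPM.

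**Figure D1:**
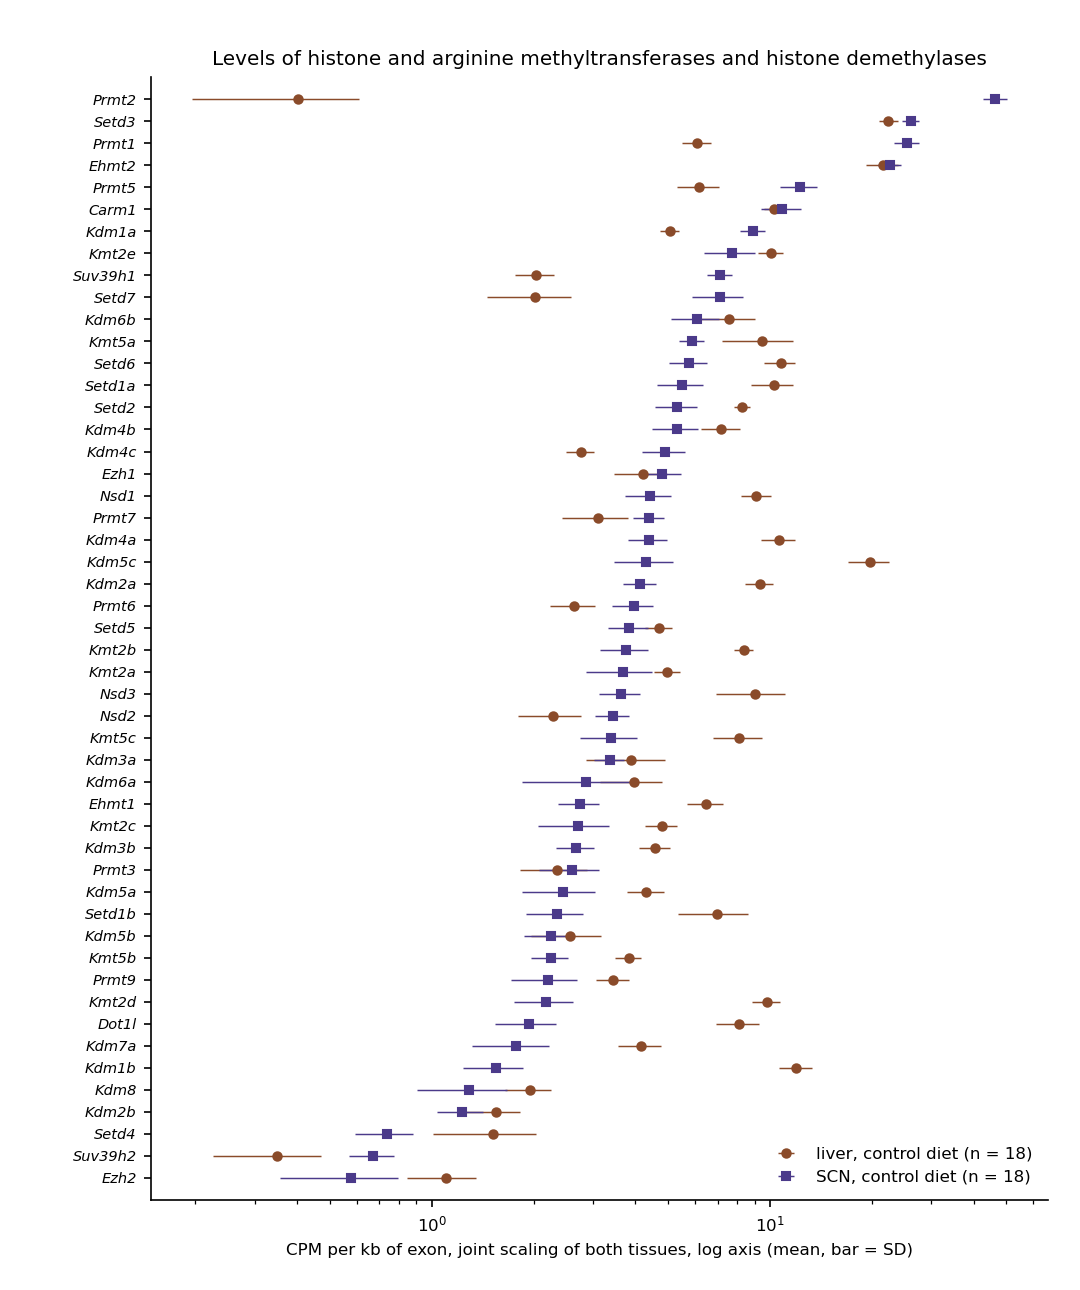
Levels on the control diet of 50 genes, as CPM per kilobase of exon on a log axis with 1 scaling for all 72 libraries; circles are liver and squares SCN (means over 18 libraries, bars SD). Kdm4d, Kdm6bos and Prmt8 are not drawn, Prmt2 sits at opposite ends in the tissues, and Kdm5c, Kdm1b, Kmt2d and Dot1l lie to the right in liver.

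With 1 scaling for all 72 libraries, Prmt2, a weak arginine methyltransferase and coactivator, was at 157 ± 13 CPM in SCN (range 129 to 179) and 1.36 ± 0.70 CPM in liver (range 0.728 to 3.48). That is a log2 difference of 6.88 (SE 0.14, adjusted p = 7.26e-42), and no liver library came near an SCN library. Prmt1, which makes most asymmetric dimethylarginine, was at 87.0 ± 7.5 CPM in SCN and 20.9 ± 2.1 in liver (log2 2.04, SE 0.05). Its close paralog Prmt8, scaled within SCN, had 40.1 ± 9.2 CPM in SCN, from 23.5 to 56.8 over the 18 control libraries, and was not listed in liver. Setd7, which adds a single methyl group to H3K4 and to other proteins, was at 76.9 ± 13 and 21.8 ± 6.1 CPM (log2 1.87, SE 0.11). Lower in SCN were Kdm1b at 8.54 ± 1.7 against 65.7 ± 7.3 CPM (log2 -2.91, SE 0.11), Kdm5c at 30.7 ± 6.1 against 140 ± 20 CPM (-2.11, SE 0.06), the enhancer H3K4 methyltransferase Kmt2d at 43.5 ± 8.7 against 195 ± 19 CPM (-2.14, SE 0.08) and the H3K79 methyltransferase Dot1l at 16.8 ± 3.5 against 70.7 ± 10 CPM (-2.08, SE 0.09). Their ranges did not overlap between the tissues, and all 4 kept their direction when scaled by library totals. The other most significant genes were Kdm4a (-1.24), Ehmt1 (-1.24), Kdm2a (-1.11), Nsd3 (-1.36), Setd1b (-1.54) and Kmt2b (-1.14), all lower in SCN, and Kdm1a (0.86), higher, as log2 differences. Ehmt2, Kdm2b and Prmt3 did not pass the test, and Kdm4d, with a median of 0 CPM over the control liver libraries, gave no usable estimate.

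Close relatives differed between the tissues by unequal amounts. Suv39h1 and Suv39h2 both trimethylate H3K9, and both were higher in SCN, Suv39h1 by a log2 difference of 1.84 (SE 0.07; 37.5 ± 3.1 against 10.7 ± 1.4 CPM) and Suv39h2 by 0.96 (SE 0.16; 2.96 ± 0.45 against 1.54 ± 0.54 CPM). Ezh1 and Ezh2, the catalytic subunits of Polycomb repressive complex 2, went in opposite directions: Ezh1 was slightly higher in SCN (log2 0.25, SE 0.06; 35.7 ± 4.8 against 31.3 ± 5.5 CPM) and Ezh2 lower (-0.96, SE 0.13; 3.84 ± 1.5 against 7.35 ± 1.7 CPM). The ranges of both Ezh genes overlapped between the tissues, and with library totals Ezh2 was at -0.26 and not called (adjusted p = 0.0805, edgeR quasi-likelihood). Kmt5b and Kmt5c, which add the second and further methyl groups to H4K20, were both lower, by -0.74 (SE 0.06) and -1.27 (SE 0.08). With library totals Kmt5b was at -0.03 and not called (adjusted p = 0.676 by the same test), and Kmt5c at -0.57.

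In liver the MCD diet went with higher transcript levels of several methyltransferases, led by Kmt5a, the enzyme that places the first methyl group on H4K20 and whose protein rises and falls with the cell cycle. Kmt5a ran from 23.5 to 51.8 CPM on the control diet (median 28.1, n = 18) and from 41.6 to 59.3 CPM on MCD (median 53.1, n = 18). It was higher on MCD at 6 of 6 times, with a log2 difference of 0.82 (SE 0.07, adjusted p = 1.99e-09). The 3 control libraries at CT8 had 51.8, 23.5 and 25.7 CPM, and the first of these, called control CT8 a here, was the only control library inside the MCD range; the difference was 0.89 without it. Over all 51 genes tested in liver, 22 differed between the diets, against 46.6% of the 20249 genes tested. Of these 22, 19 were higher on MCD, against 25.3% of all genes, and 3 lower, against 21.2%, and the median difference was 0.06 against 0.02 over all genes.

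**Figure D2:**
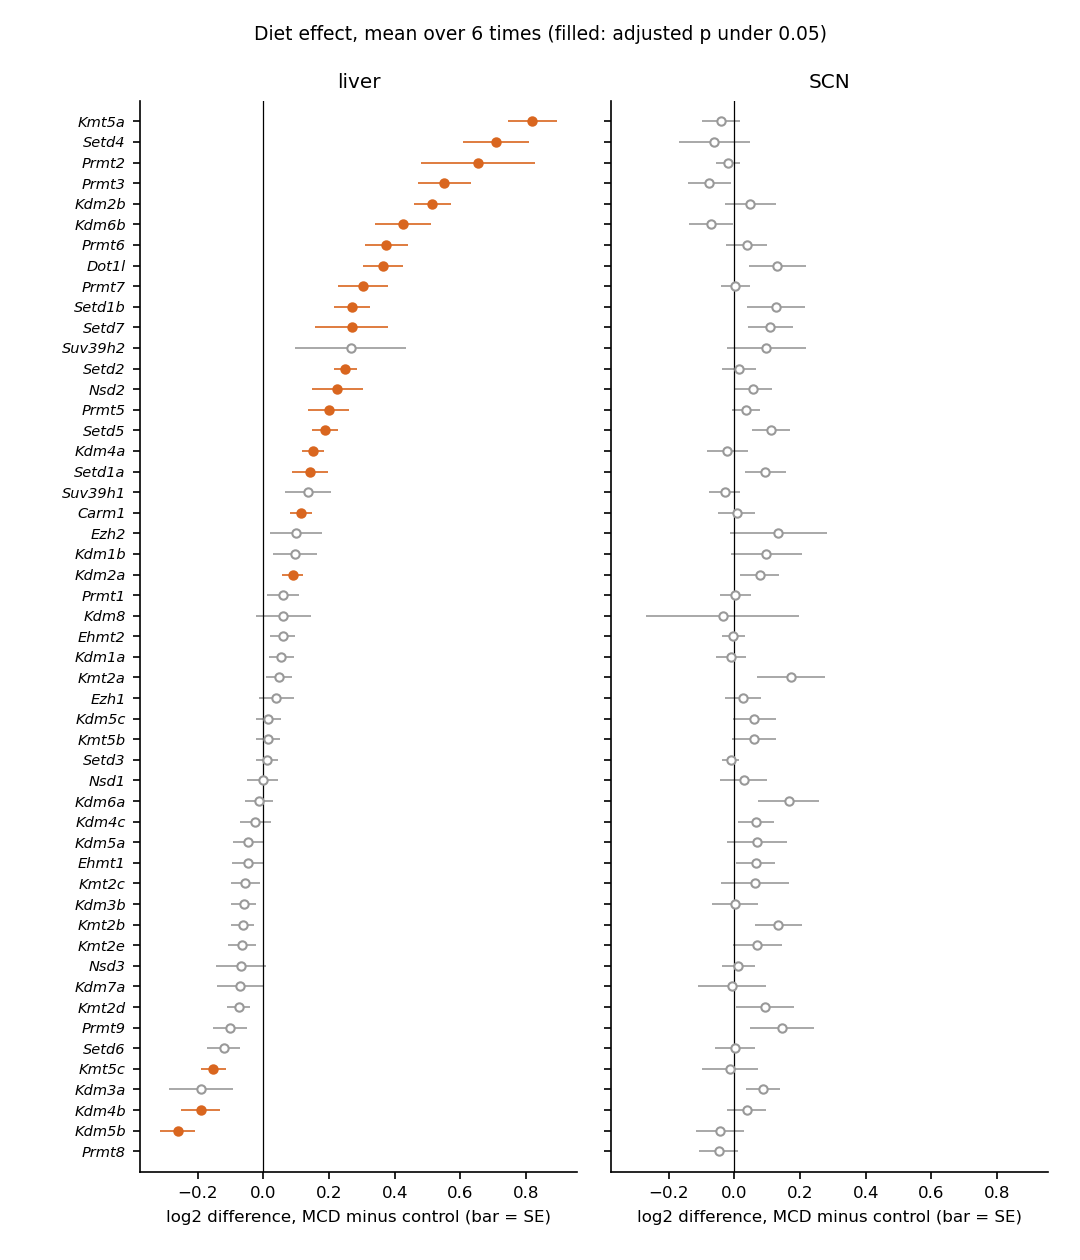
Diet effect on each gene as the log2 difference MCD minus control, averaged over the 6 times, in liver (left) and SCN (right); bars are SE, and filled points passed adjusted p under 0.05. In liver, filled points run from -0.26 for Kdm5b to 0.82 for Kmt5a, and in SCN no point is filled; Kdm4d and Kdm6bos are not drawn and Prmt8 has an SCN value alone.

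The direction of a liver value is relative to the typical liver gene, because the scaling factors differed with the diet (0.917 ± 0.074 on control, 1.10 ± 0.079 on MCD). Scaled by library totals, the median gene was 0.27 higher on MCD, and 45 of these genes were called higher and none lower. The shares of all genes called under that scaling are not given here, so this count is no result about these genes alone. The 3 genes called lower were not called under that scaling: Kmt5c changed sign (-0.15 to 0.10), as did Kdm4b (-0.19 to 0.07), and Kdm5b lay at -0.003. Liver libraries also fell into 2 kinds by the level of mt-Nd6, the mitochondrial gene read from the strand opposite to most others: 21 libraries at 41.6 to 119 CPM and 15 at 414 to 925 CPM. Of the low kind 8 were control and 13 MCD, of the high kind 10 and 5, and within these kinds the liver diet effect was called for 10 and 11 of these genes, beside 4471 and 5042 of all genes (9426 over both kinds together). Genes of dividing cells (Mki67, Top2a, Ccnb1, Cdk1) all rose on MCD, with a sum of 22.1 ± 11 CPM (7.95 to 39.4) against 7.63 ± 7.9 on control (3.95 to 38.1). Macrophage genes, 7 of 8 in the table, summed to 514 ± 114 against 391.9 ± 111 CPM (273.9 to 630.6 on control, 359.4 to 771.7 on MCD), and lymphocyte genes to 25.5 ± 8.9 against 17.9 ± 6.6 CPM. Stellate cell genes, 4 of 5 in the table, summed to 292.5 ± 107.5 against 222.6 ± 61.1 CPM, with Dcn (log2 0.35) and Col3a1 (0.74) called higher. Endothelial genes summed to 248.2 ± 28.6 against 229 ± 23.0 CPM. Of the 4 hepatocyte genes Cps1 (-0.54), Ttr (-0.35) and Apoa1 (-0.27) were called lower and Alb was not called, while their sum was 91560 ± 15950 against 88300 ± 13060 CPM. The part of these cells in the diet differences below was not tested.

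Among histone methyltransferases, Dot1l rose from 42.6 ± 6.3 to 55.1 ± 8.6 CPM (SD, n = 18 each; log2 0.36, SE 0.06) and was higher on MCD at 6 of 6 times. Setd2, which makes trimethylated H3K36 behind RNA polymerase II, had 48.5 to 60.0 CPM on control (median 53.3) and 50.0 to 79.1 on MCD (median 63.5; log2 0.25, SE 0.04), with 12 MCD libraries above every control library. Its difference was 0.53 at CT16 and 0.04 at CT4, and it was not called within the high mt-Nd6 kind (0.16, adjusted p = 0.246 by the edgeR quasi-likelihood test). Setd1b, a catalytic subunit of the COMPASS complexes for H3K4, rose by 0.27 (SE 0.06) in the mean, with values from 0.63 at CT0 to -0.25 at CT12. It lost its call in 2 of the 12 alternative fits described below. Kmt5c, which makes trimethylated H4K20, moved the other way: 19.5 ± 3.2 CPM on control and 17.4 ± 1.6 on MCD (log2 -0.15, SE 0.04), with overlapping ranges of 13.5 to 23.6 and 15.2 to 21.4 CPM. In 3 of the 12 alternative fits Kmt5c lost its call or changed sign. Setd4, a SET protein with several described substrates, had 4.93 ± 1.6 CPM on control and 7.90 ± 2.2 on MCD (log2 0.71, SE 0.10), highest relative to control at CT16 (1.61). Setd5, a SET protein whose own catalytic activity is disputed, rose by 0.19 (SE 0.04) and was not called within either mt-Nd6 kind, where it was 0.20 and 0.12 (low and high kind; adjusted p = 0.0549 and 0.116 by the same test).

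Arginine methyltransferases made up 6 of the 19 genes that were higher on MCD, or 6 of the 8 tested in liver, against 25.3% of all genes, and none was called lower, against 21.2%. Prmt3, the cytosolic enzyme that methylates ribosomal protein uS5, had 5.51 to 11.3 CPM on control (median 8.89) and 10.1 to 15.03 on MCD (median 12.7). Its log2 difference was 0.55 (SE 0.08, adjusted p = 2.95e-06), higher at 6 of 6 times, and 13 of 18 MCD libraries lay above every control library. Prmt6, which makes asymmetric dimethylarginine on H3, rose from 6.67 ± 1.0 to 8.67 ± 1.8 CPM (log2 0.37, SE 0.07). Prmt7, which adds a single methyl group, rose from 11.5 ± 2.6 to 14.1 ± 1.8 CPM (log2 0.30, SE 0.08), and was not called without replicate 1 (0.24, adjusted p = 0.0968, edgeR quasi-likelihood). It lost its call in 2 of the 12 alternative fits, this one included. Exons of Prmt7 overlap Smpd3 on the other strand, which rose by 1.65 from 4.07 ± 2.3 to 12.6 ± 5.3 CPM; the counting strand is not given, so reads of both genes cannot be told apart for certain. Prmt2 stayed near 1 CPM in liver on both diets (0.821 ± 0.42 and 1.26 ± 0.39 CPM; log2 0.65, SE 0.17) and was not called within either mt-Nd6 kind, where it was 0.52 and 0.69 (adjusted p = 0.205 and 0.142 by the same test), or without replicate 2 (adjusted p = 0.0577).

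Of the 14 jumonji demethylases tested, 4 were higher on MCD, against 25.3% of all genes, and 2 lower, against 21.2%. Kdm2b, an H3K36 demethylase that also brings Polycomb complexes to CpG islands, had 8.66 to 16.0 CPM on control (median 9.41) and 9.37 to 26.2 on MCD (median 14.2; log2 0.51, SE 0.06). The difference was 0.80 at CT16 and 0.22 at CT4. Kdm6b, an H3K27 demethylase induced by inflammatory signals, rose from 31.7 ± 6.1 to 42.7 ± 6.8 CPM (log2 0.42, SE 0.09) and was higher at 5 of 6 times. Kdm4a, which acts on methylated H3K9 and H3K36, rose by 0.15 (SE 0.03), with 0.51 at CT20 and -0.12 at CT8, and was not called within either mt-Nd6 kind, where it was 0.18 and 0.11 (adjusted p = 0.079 and 0.327 by the same test). Kdm5b, an H3K4 demethylase, was the clearest to fall: 17.2 to 37.1 CPM on control (median 24.9) and 14.98 to 32.1 on MCD (median 20.8), a log2 difference of -0.26 (SE 0.05, adjusted p = 0.000251) and lower at 6 of 6 times. The ranges of Kdm5b overlapped widely. Neither flavin demethylase nor either H3K27 methyltransferase was called, nor was any of the 4 H3K9 methyltransferases. The other 7 called genes lay between -0.19 and 0.27.

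**Figure D3:**
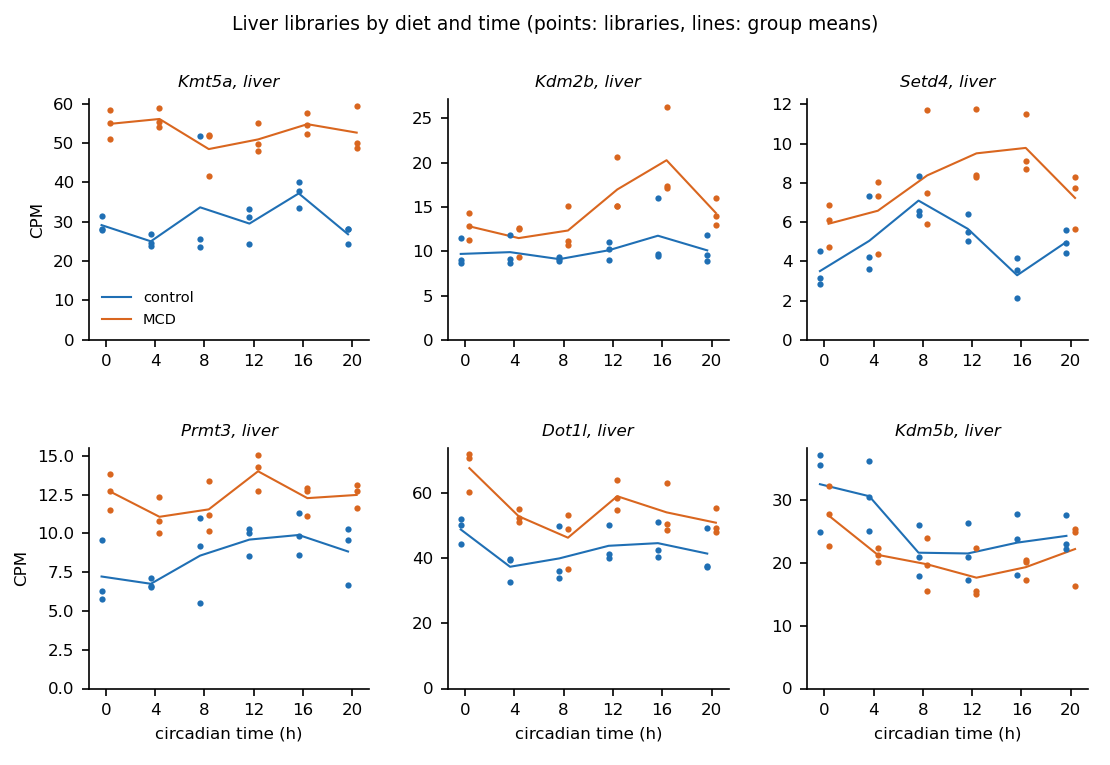
CPM in each liver library (points) and group means (lines) against circadian time in h for Kmt5a, Kdm2b, Setd4, Prmt3, Dot1l and Kdm5b, control in blue and MCD in orange. The MCD line lies above control at all 6 times for the first 5 genes and below it for Kdm5b, and 1 control library of Kmt5a at CT8 lies among the MCD points at 51.8 CPM.

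Control CT8 a was looked at for all 22 genes called without it, since its Kmt5a level lay with MCD. For 16 of them its log2 value was nearer to the MCD mean and for 6 nearer to the mean of the other controls. The number called was 22 with this library as well, but Kdm2a was called only with it and Prmt9 only without it. The same comparison over all called genes is not given here. The control CT8 group also had the highest mean of the control times for genes of dividing cells (17.2 ± 18 CPM, against 4.62 to 7.72 at the other times) and of stellate cells (299.8 ± 124, against 195.1 to 211.7 CPM). The same held for macrophage genes (469 ± 151, against 332.4 to 434.2 CPM) and lymphocyte genes (23.0 ± 13, against 14.1 to 18.2 CPM), and the part of these cells in its Kmt5a level was not tested.

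In SCN none of the 52 genes tested differed between the diets, against 0.0635% of all 15759 genes. Kdm4d was the 1 gene with an unadjusted p under 0.05 in the edgeR test. DESeq2 called 1 gene and limma-voom 0. Kdm4d is an H3K9 demethylase known chiefly from testis, and in SCN it was near its detection limit, at 0 to 2.15 CPM on control and 0.554 to 2.07 on MCD. Kmt5a, the gene that moved most in liver, had 28.0 to 41.4 CPM on control (median 37.6) and 25.2 to 42.8 on MCD (median 38.5) in SCN. Its log2 difference was -0.04 (SE 0.06), and the groups overlapped throughout.

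The difference of the diet effects themselves, SCN minus liver, was tested in 1 model of all 72 libraries. It passed for 10 of 51 genes, against 34.7% of all genes. The effect was lower in SCN for Kmt5a (-0.86, SE 0.10), Setd4 (-0.77, SE 0.14), Prmt2 (-0.66, SE 0.16), Prmt3 (-0.62, SE 0.10), Kdm6b (-0.49, SE 0.11), Kdm2b (-0.46, SE 0.10), Prmt6 (-0.33, SE 0.09), Prmt7 (-0.30, SE 0.09) and Setd2 (-0.23, SE 0.06), in log2. The SCN diet effects of these 9 lay between -0.08 for Prmt3 and 0.05 for Kdm2b. Kdm4b, an H3K9 demethylase, was higher, with -0.19 in liver and 0.04 in SCN (difference 0.23, SE 0.09), and it was not called with library totals (0.08, adjusted p = 0.515, edgeR quasi-likelihood). That scaling gave 21 genes lower in SCN and 0 higher, with the median of all genes at -0.17. The share of all genes called under it is not given here.

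Across the day, liver rhythms were called on both diets. A 24 h cosine component was called for 16 of 51 genes on the control diet, against 17.8% of all genes, and for 23 on MCD, against 28.2%. Fitted peak-to-trough ranges were modest, with a median over the 51 genes of 0.25 on control and 0.30 on MCD (log2), below the 0.43 and 0.47 over all genes. On control, 7 of the 16 peaks lay nearest CT4 and 5 nearest CT0, beside 675 and 605 of the 3611 peaks over all genes. On MCD, 10 of the 23 lay nearest CT20 and 6 nearest CT0, beside 1202 and 742 of 5704 over all genes, for which CT20 was the commonest time as well. Both diets called 9 genes, of which 8 peaked earlier on MCD, with a median shift of -3.11 h; over all 2271 genes called on both, 79.7% peaked earlier and the median shift was -1.74 h. The fitted range was larger on MCD for 30 of 51 genes, against 55.1% of all genes.

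On the control diet the clearest rhythms belonged to Kmt5c, with a range of 0.58 and a fitted peak at CT23.5, and Setd1b, with 0.73 and a peak at CT6.9 (adjusted p = 2.33e-05 and 0.000171, edgeR quasi-likelihood). Among the demethylases, Kdm5b (range 0.61) peaked at CT0.8, Kdm4a (0.36) at CT23.5, Kdm3a (0.70), an H3K9 demethylase, at CT2.9, Kdm2a (0.24) at CT3.3 and Kdm5a (0.32) at CT5.8. Ezh1 (0.51) and Ezh2 (0.59) peaked at CT1.6 and CT3.6 and Ehmt2 (0.32) at CT5.5. Setd4 (0.80) at CT8.3, Prmt7 (0.54) at CT12.5 and Prmt3 (0.56) at CT14.5 peaked later. Setd1a (0.40) had its peak at CT2.0 and Kmt2d (0.26) at CT23.7. The count was 2 without replicate 1, 4 without replicate 2 and 13 without replicate 3, which holds all the females. The counts over all genes in these fits are not given here, so the fall is no result about these genes alone.

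On MCD, 4 of the first 5 genes by adjusted p peaked between CT18.1 and CT20.4. Kdm4a had a range of 0.73 with a peak at CT20.4, Kdm2a 0.57 at CT20.1, Setd2 0.51 at CT18.1, Kmt5b 0.50 at CT18.8 and Kdm2b 0.75 at CT15.5. Setd5 (0.48) and Setd1b (0.64) followed at CT0.7 and CT1.7, and Ehmt2 (0.48) and Prmt1 (0.55) at CT4.7 and CT4.6. The X-linked Kdm6a (0.49) and Kdm5c (0.39) peaked at CT19.9 and CT18.9, Kdm4c (0.48) at CT19.5, Prmt6 (0.60) at CT18.9 and Kdm5b (0.53) at CT23.9. The count of 23 fell to 11 without replicate 1, 15 without replicate 2 and 16 without replicate 3. Here too the counts over all genes in the same fits are not given. The range of 1.66 for Suv39h2 (peak CT16.3) was the widest of the 15 and rested on levels of 0.532 ± 0.12 to 1.69 ± 0.36 CPM (group means, n = 3). Of the genes whose windows hold an E-box, Prmt3 was called on control, Prmt1, Kdm6a and Kdm4c on MCD and Ehmt2 on both. Of the 33 other tested genes with a window, 20 were called on either diet, and the difference was not tested. Over all 20249 genes, 3611 were called on control and 5704 on MCD, with 2271 called on both. Fitted peaks of the E-box genes ran from CT4.6 to CT19.9.

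A difference in rhythm between the diets passed for 6 of 51 genes, against 4.87% of all genes. In Kdm2a, an H3K36 demethylase that binds CpG islands, the 3 control libraries had 82.9, 81.4 and 84.0 CPM at CT0, 95.6, 93.8 and 80.1 at CT4, 81.3, 92.5 and 79.2 at CT8, 73.9, 74.0 and 73.6 at CT12, 71.6, 82.2 and 75.6 at CT16 and 87.4, 70.4 and 80.5 at CT20. On MCD they had 95.8, 91.4 and 89.0 CPM at CT0, 76.1, 77.8 and 81.5 at CT4, 74.1, 71.4 and 71.1 at CT8, 76.0, 71.9 and 81.1 at CT12, 98.0, 94.2 and 88.9 at CT16 and 105.7, 111.0 and 110.9 at CT20. At CT20 every MCD library lay above every control library, and the peak moved from CT3.3 to CT20.1. The difference had a size of 0.69 (log2, peak to trough; adjusted p = 0.000616, edgeR quasi-likelihood).

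Kdm4a peaked late in the night on both diets and had the wider swing on MCD, from 31.0 ± 3.1 CPM at CT8 to 53.4 ± 4.6 at CT20, against 30.9 ± 1.6 at CT12 to 41.0 ± 0.38 at CT0 on control (size of the difference 0.55, adjusted p = 0.00423). Its 3 MCD libraries at CT20 had 53.9, 57.6 and 48.6 CPM and its controls 37.9, 41.5 and 33.5, with no overlap. Setd2 varied little on control, where group means lay between 52.4 ± 1.7 and 54.5 ± 2.3 CPM, a fitted range of 0.02. On MCD Setd2 had 72.3, 74.8 and 79.1 CPM at CT16 and 50.0, 54.3 and 58.9 at CT4, a fitted range of 0.51 (size of the difference 0.50, adjusted p = 0.0112). Kmt5b, an H4K20 methyltransferase, had 37.3, 40.4 and 42.7 CPM at CT16 on MCD and 30.1, 33.7 and 31.1 on control, and at CT4 32.6, 27.1 and 31.5 against 38.0, 38.7 and 32.1. The order of the diets was thus reversed between these times, without overlap at CT16 (size 0.54, adjusted p = 0.0110).

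Setd1b peaked at CT8 on control, with 67.4, 82.2 and 54.7 CPM, and was lowest at CT16, with 33.1, 43.5 and 33.8. On MCD it stayed between 67.2 ± 7.4 and 68.5 ± 8.7 CPM from CT20 through CT8 and was lowest at CT12 (45.0 ± 5.0), so that its fitted peak moved from CT6.9 to CT1.7 (size 0.87, adjusted p = 0.00612). Kmt5c was the 1 gene of the 6 called rhythmic on control and not on MCD. On control it fell from 23.5, 23.0 and 22.5 CPM at CT4 to 13.5, 15.5 and 15.9 at CT12, while on MCD all group means lay between 15.9 ± 0.33 and 19.4 ± 2.0 CPM and the fitted range was 0.02 (size 0.59, adjusted p = 0.00612). Without replicate 1 or without replicate 2 none of the 6 passed (adjusted p from 0.110 to 0.324 over these fits, edgeR quasi-likelihood), while the sizes stayed between 0.43 and 1.13. Without replicate 3, 3 passed: Kdm2a, Kmt5c and Kmt5b.

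**Figure D4:**
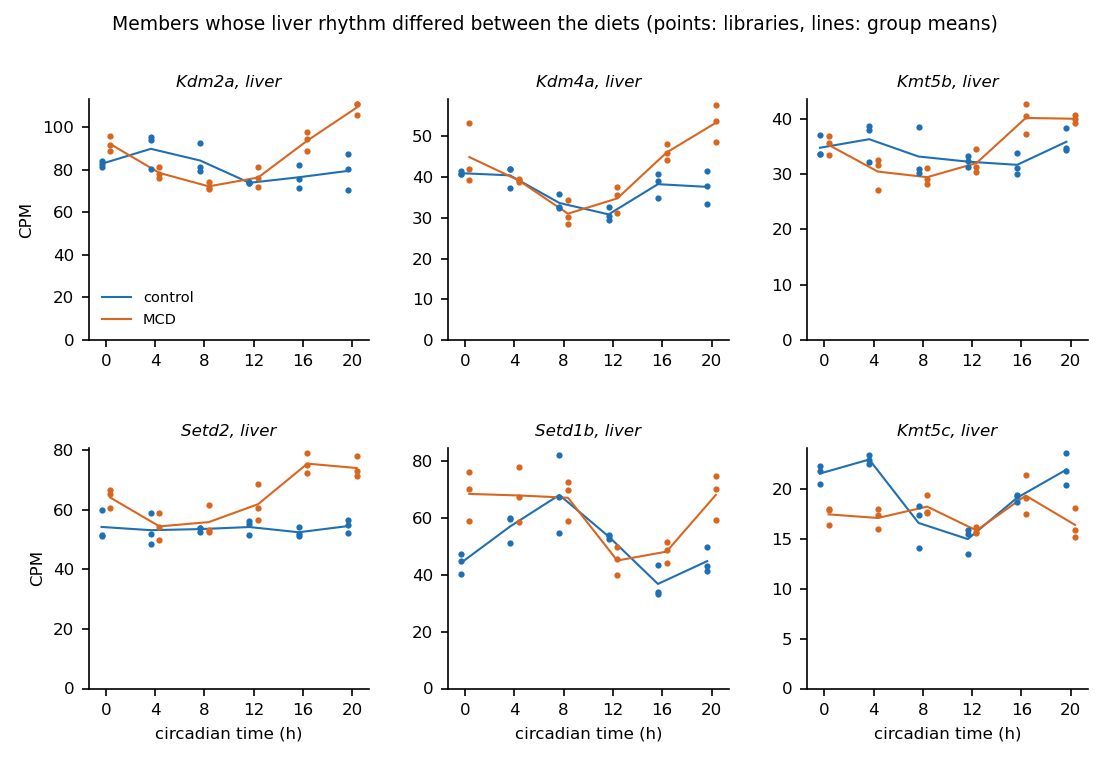
CPM in each liver library (points) and group means (lines) against circadian time in h for the 6 genes whose 24 h rhythm differed between the diets, control in blue and MCD in orange. Kdm2a, Kdm4a, Kmt5b and Setd2 rise at CT16 and CT20 on MCD, Setd1b is high at CT20 and CT0 on MCD but not on control, and Kmt5c swings on control and is flat on MCD.

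In SCN a rhythm was called for 3 of 52 genes on control, against 15.1% of all genes, and for 6 on MCD, against 16.1%; DESeq2 called 7 on control and library totals gave 5. Prmt8 was rhythmic on both diets, with ranges of 0.71 and 0.84 and fitted peaks at CT21.1 and CT21.6 (adjusted p = 0.000330 and 3.09e-05, edgeR quasi-likelihood). Its control libraries had 51.5, 56.8 and 39.8 CPM at CT16 and 26.9, 31.6 and 23.5 at CT12; on MCD they had 58.0, 38.9 and 52.4 at CT16 and 27.7, 21.4 and 21.4 at CT12. The lowest level at CT12 and the high level 4 h later thus recurred in both sets of mice. On control, Prmt7 was also called (0.34, peak CT21.3), as was Kdm4d, whose 3 libraries at CT20 were all at 0 counts, so that its fitted range carries no size. Kdm4d was not called by limma-voom (adjusted p = 0.108) and Prmt7 not without replicate 1 or 2 (adjusted p = 0.162 and 0.296, edgeR quasi-likelihood).

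On MCD the SCN rhythm of Kdm3a was called with a range of 0.65 and a peak at CT9.1. Its MCD libraries had 41.6, 47.6 and 43.2 CPM at CT12 and 29.1, 28.1 and 22.4 at CT20, while control group means lay between 31.7 ± 2.7 and 35.2 ± 2.1 CPM. Prmt5 (0.36, peak CT19.8), Kdm7a (0.78, CT12.9), an H3K9 and H3K27 demethylase, Kmt5c (0.64, CT17.7) and Kmt2c (0.71, CT12.5), an enhancer H3K4 methyltransferase, were called on MCD alone, and none of these 4 without replicate 2. A call on MCD alone does not show a difference: the test of the rhythm difference passed for 0 of 52 genes, against 0.0127% of all genes, with 3 at an unadjusted p under 0.05 in edgeR (Kdm3a, Kdm4d and Setd4) and none by DESeq2 or limma-voom.

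The most significant sex differences in liver were those of 2 X-linked genes, while a further X-linked gene, Suv39h1, was called in neither tissue. In liver 6 of 51 genes differed, against 9.44% of all genes, 3 higher in females and 3 lower. Kdm6a (UTX), an H3K27 demethylase known to escape X inactivation, had 21.89 to 30.2 CPM in the 12 females (median 26.3) and 12.5 to 21.88 in the 24 males (median 17.0), with a log2 difference of 0.60 (SE 0.05, adjusted p = 2.34e-10). Kdm5c (SMCX), which escapes X inactivation too, had 93.2 to 123 CPM in females (median 98.6) and 60.5 to 92.5 in males (median 77.5; log2 0.41, SE 0.04). Neither gene's ranges overlapped between the sexes in liver, by a narrow margin in both. The Y-linked Uty, from the list of other jumonji genes below, had 8.94 to 18.4 CPM in the 24 liver libraries labelled male. In the 12 labelled female it had 0 to 0.106 CPM. Kdm5b was lower in females (19.4 ± 3.6 against 25.4 ± 5.6 CPM; log2 -0.38, SE 0.06), and so were Nsd3 (-0.29, SE 0.08) and Kdm4a (-0.14, SE 0.04), while Kdm2b was higher (0.32, SE 0.06). Nsd3 and Kdm4a were not called without replicate 1 or 2 (adjusted p from 0.0799 to 0.11, edgeR quasi-likelihood), and Kdm2b not without replicate 1 (0.0559). All female libraries carry the number 3, so sex and that number cannot be told apart.

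**Figure D5:**
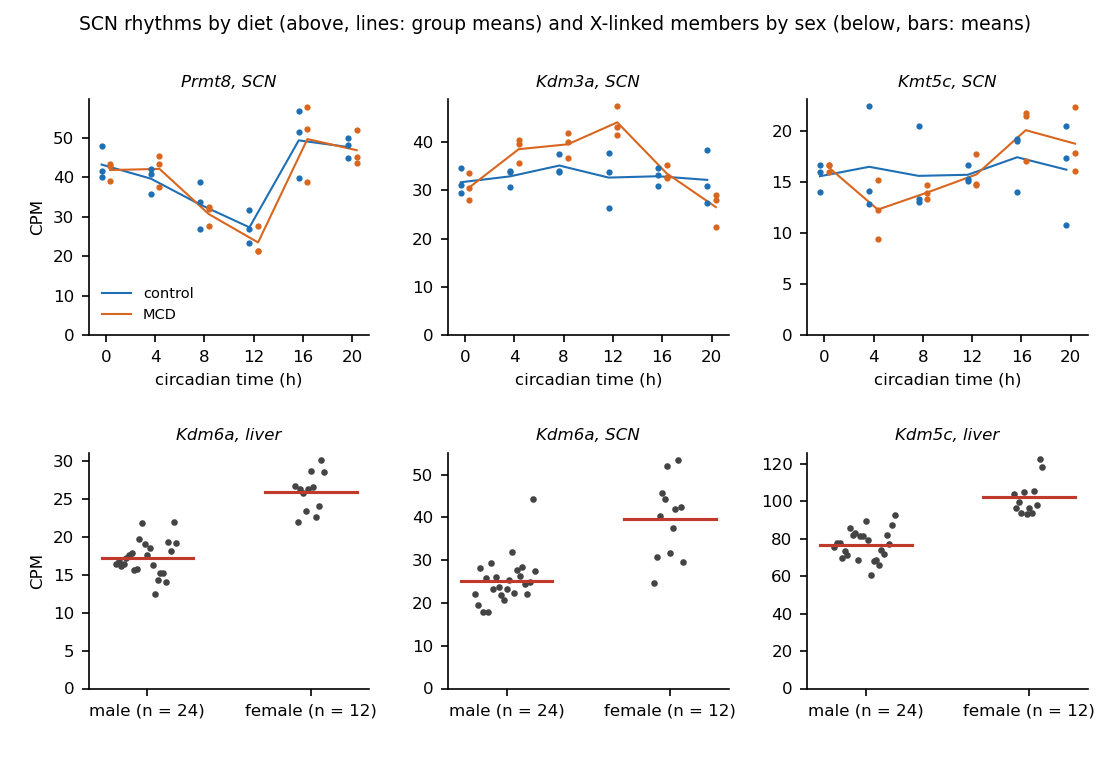
Above, CPM in each SCN library against circadian time in h for Prmt8, Kdm3a and Kmt5c, with group means as lines, control in blue and MCD in orange; below, CPM by sex for Kdm6a in liver and SCN and Kdm5c in liver, with bars at the mean of 24 male and 12 female libraries. Prmt8 is lowest at CT12 on both diets, and the liver points of Kdm6a and Kdm5c do not overlap between the sexes.

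In SCN 2 of 52 genes differed by sex, against 9.89% of all genes; with library totals 7 did, 1 higher and 6 lower in females. Kdm6a was higher in females (24.7 to 53.3 CPM, median 41.2, against 17.9 to 44.3, median 24.6; log2 0.65, SE 0.10), with overlap, and Kdm4c was lower (31.9 ± 4.9 against 36.2 ± 3.7 CPM; log2 -0.19, SE 0.06). Kdm4c was not called without replicate 1 or 2 (adjusted p = 0.303 and 0.102, edgeR quasi-likelihood) or by limma-voom (0.0648). Kdm5c had 40.6 ± 7.9 CPM in females and 35.6 ± 4.5 in males and did not pass (log2 0.18, SE 0.07, adjusted p = 0.0976, edgeR quasi-likelihood). The diet effect in liver differed between the sexes for 1 gene, against 1.77% of all genes: Setd1a, the H3K4 methyltransferase paralogous to Setd1b. Setd1a had 38.1 ± 6.5 CPM on control and 49.3 ± 4.9 on MCD in females (n = 6 each) and 44.0 ± 4.8 and 44.7 ± 5.4 in males (n = 12 each), a difference of the effects of 0.36 (SE 0.09, adjusted p = 0.0384). It was not called without replicate 1 or 2 (adjusted p = 0.114 and 0.42) or with library totals (0.162).

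Exon usage, the share of a gene's reads in each exon bin (a stretch of exon shared by the same transcripts), was compared from the deposited bin counts. By diet, 1 of 48 genes was called in liver, against 3.45% of all 11694 genes, and 0 of 50 in SCN, against 0.0387% (edgeR diffSpliceDGE with Simes p), where 0 had an unadjusted p under 0.05 and the gene-level F test called 0. The 1 gene was Kdm1b, through bin 30, a noncoding end of the gene that overlaps Dek on the other strand, with a log2 change in usage of -0.64 (adjusted p = 3.65e-05). This bin moved with the mt-Nd6 level: it held 5.00% ± 2.4 of Kdm1b's bin counts in 9 control libraries of the high kind and 0.401% ± 0.21 in 7 of the low kind, and 4.37% ± 1.3 (n = 5) and 0.549% ± 0.30 (n = 13) on MCD. With the kind as a term, a fit chosen after seeing the data, the change was 0.04 and no gene was called.

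Between the tissues 45 of 50 genes differed in exon usage on the control diet, against 70.1% of all genes. The skew toward the 3′ end given with the tissue levels was measured in these bins. Liver RNA and laser-cut SCN RNA were extracted by different methods, and extraction and tissue cannot be told apart in the exon differences. Setd3, Setd4, Setd7, Nsd2 and Nsd3 were the 5 genes without that pattern. In Ezh1, 2 neighbouring noncoding bins inside the gene took more of the reads in SCN, bin 11 with 8.68% ± 2.3 (n = 18) against 1.59% ± 0.53 in liver (n = 16) and log2 changes of 1.66 and 1.74 for bins 11 and 12. In Setd3, bins 8 to 12 were all lower in SCN (log2 -1.83 to -2.66), and bin 12 held 0.0875% ± 0.086 of the counts there against 1.03% ± 0.30 in liver. These Setd3 bins carry no coding sequence in the annotation used. In Prmt1, 4 short bins near its 5′ end, outside the coding sequence, were lower (-0.73 to -1.96), with bin 36 at 0.201% ± 0.10 against 1.37% ± 0.40. Bins at 3′ ends were higher in SCN in Kmt2c (bin 1, 12.1% ± 4.7 against 2.19% ± 0.27) and Kmt2d (bin 2, 34.9% ± 9.0 against 10.3% ± 0.61). Bin 38 of Kdm5b was higher too (3.53% ± 1.4 against 0.318% ± 0.23), and coding bins of Ehmt2 (bin 6, -1.12) and Setd2 (bin 3, -1.34) were lower.

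A pair of further lists places these genes beside their relatives. Of 29 partner genes, the noncatalytic subunits of the same complexes, 8 differed by diet in liver, 4 higher and 4 lower, with a median of -0.01, against 46.6% of all genes called, 25.3% higher and 21.2% lower, and a median of 0.02. Wiz, a zinc finger partner of Ehmt1 and Ehmt2, rose from 23.3 ± 1.4 to 28.3 ± 3.2 CPM (log2 0.28, SE 0.04), Aebp2, a Polycomb subunit, from 27.2 ± 4.8 to 36.3 ± 5.1 (0.42, SE 0.07), and Ash2l, a subunit of H3K4 complexes, from 19.1 ± 1.5 to 20.7 ± 2.2 (0.11, SE 0.03). Rbbp4, a histone chaperone, fell from 90.3 ± 18 to 74.9 ± 12 CPM (-0.26, SE 0.07). Of 32 other genes of SET, SMYD, PRDM, jumonji and related enzymes, among them methyltransferases of other proteins such as Mettl18 and Eef1akmt1, 21 differed, 15 higher and 6 lower, with a median of 0.08, beside the same shares and median over all genes. Hspbap1 (0.68, SE 0.10), Smyd5 (0.61, SE 0.08) and Smyd1 (0.56, SE 0.08) rose and Jmjd8 fell (-0.36, SE 0.06). The liver rhythm differed between the diets for 2 partners, Wdr5 and Wdr82, and for 3 of the other list, Setdb1, Smyd1 and Mettl18, against 4.87% of all genes.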

How the data were processed

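For each tissue the authors deposited a table of raw gene counts (whole reads), and counts per exon bin for each library. The submitters' processing notes name Trimmomatic, HISAT2, StringTie, DESeq2 and the build GRCm39, with no versions; the counting strand is not given in the sources used here. Groups of 2 males and 1 female were taken from the sample labels, and the 2 control CT8 males, which share a column name in each gene table, are called a and b.

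From these counts, differences were fitted with edgeR 4.0.16 (R 4.3.3; TMM scaling, filterByExpr with a minimum count of 10, robust quasi-likelihood F tests), with 12 groups of diet and time per tissue and sex as a term. A rhythm is a 24 h cosine and sine pair tested together, and its range is the fitted peak-to-trough difference. The tissue comparison and its interaction with diet used 1 fit of all 72 libraries. Exon bins were tested with diffSpliceDGE; 2 control CT0 liver libraries whose bin files end early were left out. Benjamini-Hochberg adjustment ran over all features tested, with a threshold of 0.05. Simulated data were used to test the edgeR gene fit, for the liver diet effect and the liver rhythm on MCD, and the exon fit for diet in SCN. The other comparisons and the alternatives were not tested in this way.

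Alternatives were DESeq2 1.42.0, limma-voom (limma 3.58.1), library totals in place of TMM, no filter, each replicate left out, a replicate block, and the mt-Nd6 kind of the liver libraries; the kind as a term in both tissue fits and in both exon fits was chosen after seeing the data. Within groups, every pair of libraries differed by more than counting noise (lowest chi-square per degree of freedom 27.2 in liver and 24.1 in SCN). The labels do not say that replicates came from separate mice beyond their sex, and p-values measure the spread between these libraries. Gene lengths, strands and bins came from GENCODE for GRCm38, which is not the build of the counts, so no coordinate of a count is given.

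The genes and lists were chosen with earlier results of these data known. Named are at most 15 genes per comparison by smallest adjusted p, the highest and lowest levels per length, Kdm5c and Kdm6a for sex, 4 pairs of close relatives, and at most 4 genes per further list.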

Additional observations from a re-analysis of the deposited data

Results flagged for a closer look

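The diet effect differed between the tissues, by the interaction test of the 72-library fit, for 10 genes. As SCN minus liver in log2, the values were -0.856 for Kmt5a, -0.766 for Setd4, -0.665 for Prmt2, -0.622 for Prmt3, -0.492 for Kdm6b, -0.462 for Kdm2b, -0.333 for Prmt6, -0.296 for Prmt7, -0.232 for Setd2 and 0.232 for Kdm4b.

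The liver rhythm differed between the diets, by the test of the difference, for 6 genes. The peak-to-trough size of the difference in log2 was 0.873 for Setd1b, 0.689 for Kdm2a, 0.592 for Kmt5c, 0.546 for Kdm4a, 0.539 for Kmt5b and 0.503 for Setd2. None of the 6 passed without replicate 1 or without replicate 2.

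The liver diet effect on Setd1a differed between the sexes, by the sex-by-diet term, with 0.359 for females minus males in log2.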

How the results depend on the processing

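The gene values recomputed under the alternatives cover the genes the naming rule picks, not every called gene. Of these 1023 values, 900 kept their direction and side of the threshold, 121 lost the threshold and 2 changed sign: Kmt5c by diet with library totals (0.099) and bin 30 of Kdm1b with the library kind as a term (0.043). Over every called gene, library totals turned the sign of 2 liver diet effects (Kmt5c, and Kdm4b at 0.065) and of 12 tissue differences. Of 130 counts, 99 stayed within 1.5 times. With library totals the liver diet count was 45, the tissue interaction 21, SCN rhythm on control 5 and SCN sex 7. DESeq2 gave 1 for SCN diet, 7 for SCN rhythm on control and 2 for sex by diet, limma-voom 1 for SCN sex, and the gene-level F test 2 for liver exon usage. Within the low and high mt-Nd6 kinds the liver diet count was 10 and 11, and with the kind as a term liver exon usage had 0. Without control CT8 a the sex-by-diet count was 2. Leaving out a replicate gave 15 to 21 for liver diet, 2 to 13 for liver rhythm on control, 11 to 16 on MCD, 0 to 3 for the rhythm difference, 3 to 4 for liver sex and 0 for sex by diet. In SCN it gave 0 for diet, 1 to 5 and 2 to 6 for rhythm on control and MCD, 0 for the rhythm difference and 1 to 2 for sex. Between tissues it gave 39 to 48 for levels, 6 to 13 for the interaction and 41 to 42 for exon usage, and by diet 0 to 1 for liver and 0 for SCN exon usage. The causes of these changes were not tested, apart from the fewer libraries when some were left out. Apart from the diet counts within the mt-Nd6 kinds, no share over all genes in the same fit stands beside these counts.

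Replicate numbers did not pair the libraries: over 16 pairs per tissue the lowest correlation of deviations was -0.377 in liver and -0.173 in SCN, 4 pairs of 16 exceeded 0.1 in each, and 5 and 6 were best with their own number. With the replicate block the counts were 23 for liver diet, 13, 24 and 7 for liver rhythm on control, on MCD and their difference, and 0, 2, 6 and 0 for the same in SCN with diet first. They were 42 for the tissue comparison, 9 for its interaction, and 1, 0 and 45 for exon usage in liver, in SCN and between tissues. Depth limits Kdm4d, Kdm6bos, and Prmt2 and Suv39h2 in liver, all near or under 1 CPM.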
